A study of Mus musculus with 4 samples.

Results

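The cells described here came from mouse tumor ascites, the fluid that collects in the peritoneal cavity of tumor-bearing animals, and were chosen for genes of the macrophages that reside in that cavity. A cell was kept with at least 300 genes, at least 500 unique molecular identifiers (UMIs, each counting 1 captured RNA molecule) and at most 15% mitochondrial UMIs. It was a member when its UMIs of Prg4, Alox15, Cd5l and Saa3 together came to at least 2 and exceeded those of Pf4, F13a1, Ccl12 and Ppbp together, and when it had no UMI of the keratin gene Krt8. Of 2921 ascites cells kept, 2417 were members, or 82.8% (exact Clopper-Pearson 95% interval 81.3% to 84.1%). Of the members, 1752 (72.5%) had at least 2 UMIs over the macrophage genes Csf1r, Adgre1, C1qa, Cd68 and Lyz2. The 4 libraries of the series together held 11253 kept cells.

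The series profiled single cells of C57BL6J mice carrying KPCA cancer lines, whose cells the labels call Fallopian tube epithelial. The labels used here list no allele of these lines. The ascites came from mice aged 9 weeks, and its labels name none of the lines (KPCA.A, KPCA.B, KPCA.C) as its source. Omental tumors of those 3 lines, from mice aged 8 weeks, gave 1 library each, for which the design text gives 4 pooled tumors. No tumor-free peritoneal fluid was analysed here. Each group was 1 library, so no difference below has a replicate check or a p-value, and intervals cover counting error only.

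Resident macrophages of the peritoneal cavity, also called large peritoneal macrophages, are long-lived cells whose identity depends on the transcription factor Gata6 and on retinoid signals. They carry high F4/80 (Adgre1), Icam2 and, in long-settled cells, the phosphatidylserine receptor Timd4, and they clear dying cells and gather at injured surfaces. A smaller peritoneal population derives from blood monocytes and carries Ccr2, Mrc1 and MHC class II. Of the 4 genes of the rule, Prg4 encodes lubricin, a secreted mucin-like glycoprotein. Alox15 encodes a lipoxygenase that oxidizes arachidonic and linoleic acid, and Cd5l a secreted scavenger protein of tissue macrophages. Saa3 encodes an acute-phase serum amyloid A protein.

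RefSeq promoter windows (GRCm38.p6) were matched for 2 of these 4 genes, Saa3 and Cd5l. They are shown with those of 2 genes on which later comparisons turn, Slpi, high in the members, and Timd4, nearly absent from them. Each run is the 250 bases before the annotated start, 5′ to 3′ on the gene's strand. Capitals mark matches, on either strand, to the letters AGATAA, read by factors of the Gata6 family, TTGCNNAA, read by C/EBP factors, TGANTCA, read by AP-1, or the NF-kB motif.
Saa3, chr7:46715677-46715926, minus strand: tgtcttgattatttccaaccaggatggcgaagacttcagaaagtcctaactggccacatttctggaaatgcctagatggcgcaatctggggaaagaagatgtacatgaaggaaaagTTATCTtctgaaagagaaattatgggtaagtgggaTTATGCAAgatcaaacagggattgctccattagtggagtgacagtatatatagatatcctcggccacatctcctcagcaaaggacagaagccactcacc
Cd5l, chr3:87357631-87357880, plus strand: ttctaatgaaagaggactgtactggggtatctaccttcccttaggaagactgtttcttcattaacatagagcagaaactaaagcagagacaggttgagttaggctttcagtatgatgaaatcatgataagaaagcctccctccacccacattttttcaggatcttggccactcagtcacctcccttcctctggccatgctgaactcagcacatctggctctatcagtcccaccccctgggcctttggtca
Slpi, chr2:164356508-164356757, minus strand: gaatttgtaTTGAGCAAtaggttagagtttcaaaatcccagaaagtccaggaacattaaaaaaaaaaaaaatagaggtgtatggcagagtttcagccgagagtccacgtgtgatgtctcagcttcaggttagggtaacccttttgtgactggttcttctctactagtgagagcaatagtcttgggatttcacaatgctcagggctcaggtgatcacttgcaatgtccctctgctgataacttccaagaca
Timd4, chr11:46810549-46810798, plus strand: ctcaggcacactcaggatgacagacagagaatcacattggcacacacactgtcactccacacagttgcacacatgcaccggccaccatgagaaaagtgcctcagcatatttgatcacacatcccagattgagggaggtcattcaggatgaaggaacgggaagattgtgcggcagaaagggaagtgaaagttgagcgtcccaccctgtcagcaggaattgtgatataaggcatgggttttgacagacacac
The Saa3 window held a Gata-family match starting 134 bases and a C/EBP match starting 99 bases before the RefSeq start. The Slpi window held a C/EBP match starting at 241 bases. The Saa3 gene span given below reaches into the Saa3 window, so its start differs from the RefSeq start used here. The Cd5l and Timd4 windows held none of the 4 letter patterns, and variants of these letters were not searched. Over 32536 windows of this length, 9.97% held the Gata-family pattern, 9.57% the C/EBP pattern, 6.73% the AP-1 pattern and 0.36% the NF-kB pattern. The matches printed do not overlap, and a match describes letters, not binding.

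The ascites library held 3118 barcodes and 7420674 UMIs, against 40054369 to 95130645 UMIs in the tumor libraries, and members had a median of 2111 UMIs (502 to 9886). The file headers name Cell Ranger 3.0.2 for the ascites and 4.0.0 for each tumor library, with 31053 and 32285 annotated genes. Levels below are CPM, a gene's UMIs scaled to a common total over the 30406 genes in both. Barcodes starting with AAACCC numbered 0 in the ascites and 3 to 9 in the tumor libraries, and those starting with AAACCT 5 and 0. Tissue, mouse age, barcode set, depth, dissociation and software differ together between ascites and tumor and cannot be told apart. A barcode was shared by the ascites and KPCA.A libraries in 1 case and by the ascites and the other 2 in none. The doublet caller Scrublet marked 7 of 2921 cells, or 0.24%, and doublets were kept; whether more were present was not tested.

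Saa3 supplied most of the counts that chose the members, and the members were a mixture. They held 130132 UMIs of the 4 genes, of which 113436 (87.2%) were Saa3 (GRCm38, chr7:46711998-46715700). A Saa3 UMI was found in 2406 members, at 18768 CPM, with a median of 16 and a highest value of 993 per cell. Prg4 (chr1:150449412-150466165) was found in 1800 members (74.5%) at 1639 CPM. Alox15 (chr11:70344152-70352031) was found in 1279 (52.9%) at 655 CPM and Cd5l (chr3:87357881-87371073) in 1091 (45.1%) at 469 CPM. All 4 genes were seen in 730 members, while 431 members (17.8%) had Saa3 and none of the other 3. These values chose the cells and are descriptions only.

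Saa3 RNA was widespread outside the members too. The mirror of the rule, at least 2 UMIs of Pf4, F13a1, Ccl12 and Ppbp, more of them than of the other 4 genes, and no Krt8, held for 384 ascites cells, and 94.3% of these had a Saa3 UMI. So did 15 of 18 cells of an ascites cluster led by the neutrophil genes Retnlg, S100a9 and S100a8, at a median of 3 UMIs, and 11 of those 18 were members. That cluster held no UMI of Prg4 (0 of 18 cells), at a median depth of 679 UMIs against 2254 in the mirror-rule cells. Prg4, Alox15 and Cd5l were seen in 12.8%, 7.29% and 8.85% of mirror-rule cells. With cells thinned to 1000 UMIs, which left out 600 members and 75 mirror-rule cells, Prg4 was seen in 66.4% and 4.53%. The rule itself fixed that these shares would be higher in members than in mirror-rule cells.

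Counting only Prg4, Alox15 and Cd5l, with the other conditions unchanged, left 1598 of the 2417 members (66.1%), called the 3-gene cells below. At the threshold of the full rule, 63 members had exactly 2 UMIs of the 4 genes, at a median depth of 935 UMIs, and 41 cells missed the rule with 1, at 781 UMIs. Equal sums left out 24 cells and Krt8 alone 20.

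**Figure D1:**
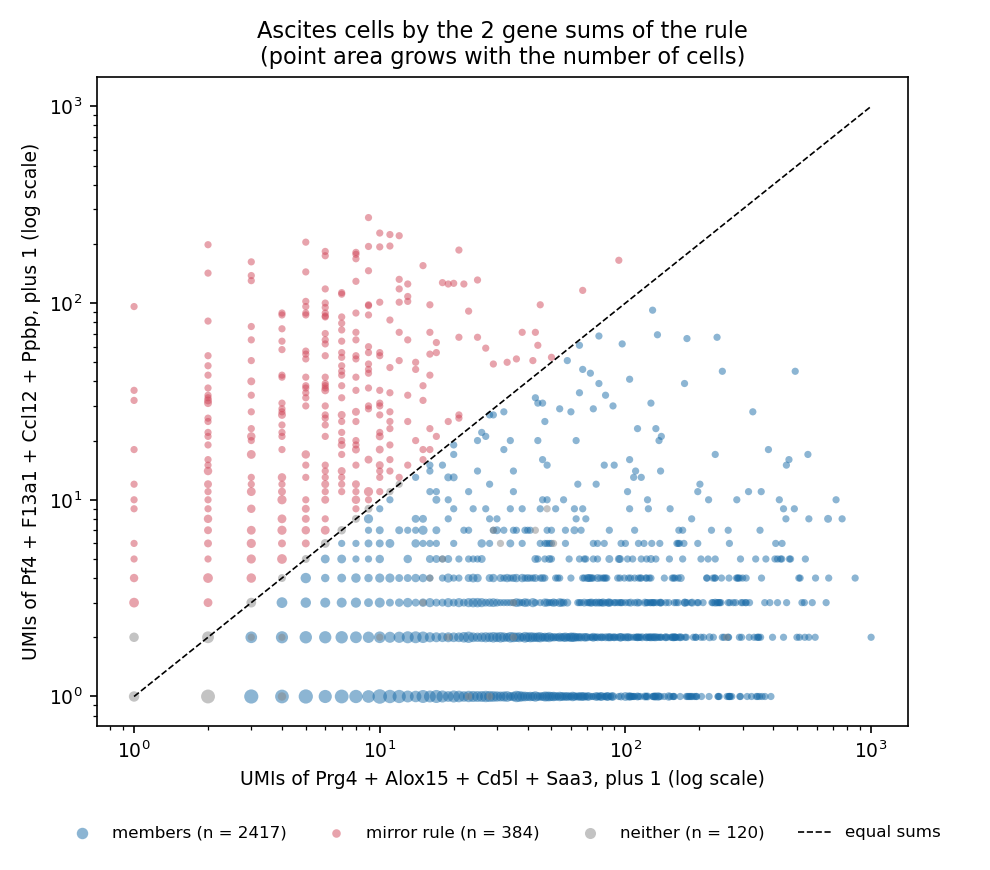
The horizontal axis gives the UMIs of Prg4, Alox15, Cd5l and Saa3 per ascites cell and the vertical axis those of Pf4, F13a1, Ccl12 and Ppbp, each plus 1 on a log scale; each point is a pair of values, and its area grows with the number of cells. The 2417 members lie under the dashed line of equal sums and reach 999 UMIs, and the 384 mirror-rule cells lie over it.

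Several markers of resident peritoneal macrophages that the rule did not use were present in the members, and Timd4 was not. Adgre1 was at 392 CPM in members, 469 CPM in the 3-gene cells and 71.3 CPM in mirror-rule cells. Gata6 was at 60.4, 71.8 and 4.53 CPM in the same order. Selp (P-selectin) was at 51.8, 61.4 and 2.27 CPM and F5 (coagulation factor V) at 63.5, 74 and 6.79 CPM. All 4 were highest in the 3-gene cells. Icam2 was low, at 22.2 CPM in members, and the complement receptor gene Vsig4 was at 8.6 CPM in members and 10.2 CPM in mirror-rule cells. Timd4 had a UMI in 12 of 2417 members, and 10 of those lay in the cluster of 83 cells described below. In the 431 members with Saa3 alone, Adgre1 was at 92.6 CPM, Gata6 at 15.8 CPM and S100a8 at 4716 CPM. Other markers of the class went against the label in the 3-gene cells: Timd4 gave 1 UMI, Vsig4 was at 7.54 CPM, Fn1 was at 1596 CPM against 2370.0 CPM in mirror-rule cells, and Cxcl13 gave 7 UMIs. The resident label thus held for some of its markers and not for others.

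Markers of most other cell types were low in the members. All 5 T cell markers were at 0. Summed levels were 2.98 CPM for the 5 B cell markers, 7.45 CPM for the 5 dendritic cell markers (Xcr1 at 0), 1.65 CPM for the 5 epithelial markers other than Krt8, 1.16 CPM for the 5 mesothelial and 17.5 CPM for the 5 fibroblast markers. The 5 neutrophil markers summed to 2293 CPM and the 5 red cell markers to 121 CPM. The 5 monocyte markers summed to 22726 CPM, of which Chil3, a chitinase-like lectin that macrophages also make, gave 22127 CPM and the chemokine receptor Ccr2 68.7 CPM. The part of such cells in the results below was not tested.

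Among the most abundant messages of the members, some encoded secreted and metal-binding proteins. Others did not, such as Tmsb4x at 10348 CPM and Actb at 6757 CPM, and no gene named Rpl, Rps or mt- is in the ranking. Wfdc17, a small WAP-domain protein of myeloid cells, led with 37977 CPM. Chil3 and Saa3 followed, then the metallothionein Mt1 at 13647 CPM. The arginase Arg1 was at 4517 CPM, osteopontin (Spp1) at 4097 CPM, thrombospondin 1 (Thbs1) at 3190.0 CPM and the protease inhibitor Slpi at 2393 CPM. Arg1 and Thbs1 were no higher than in mirror-rule cells (4768 and 3477 CPM). Division genes were near 0, with Mki67 at 1.82 CPM and Top2a at 5.29 CPM.

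Clustering the members alone, without the rule genes, gave 5 groups, numbered 0 to 4, of 1055, 933, 335, 83 and 11 cells. Clusters 0 and 1 held 842 and 737 of the 1598 3-gene cells. The clusters were formed on these genes, so the levels below describe them and test nothing.

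Clusters 0 and 1 both held Prg4, Gata6 and Adgre1 and were led by different genes. Prg4 was at 2012 CPM in cluster 0 and 1910.0 CPM in cluster 1, Gata6 at 61.7 and 77.8 CPM, Adgre1 at 447 and 469 CPM, and Cd5l at 442 and 667 CPM. Cluster 0 was led by Ear6, an eosinophil-type ribonuclease, at 343 against 189 CPM in cluster 1. Lcn2, which encodes a siderophore-binding protein, was at 519 against 239.6 CPM there, and Slpi at 3419 against 2275 CPM. Cluster 1 held the higher levels of Spp1, at 6474 against 3011 CPM in cluster 0, and of Mt1, at 18990.4 against 9292 CPM. Saa3, left out of the clustering, was at 28206 CPM in cluster 1 and 12249 CPM in cluster 0. The lectin gene Fcna was at 309 against 174 CPM. Haemoglobin RNA (Hbb-bs) was also higher in cluster 1, at 157 against 43.7 CPM, and its part in the split was not tested. Median depth was 1802 UMIs in cluster 0 and 2433 in cluster 1.

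Cluster 2 carried genes of monocyte-derived macrophages and little of the resident set. Prg4 was at 228 CPM and Gata6 at 19.1 CPM, and 17 of its 335 cells were 3-gene cells. The monocyte chemoattractant Ccl2 was at 1224 CPM, against 60.9 and 51.4 CPM in clusters 0 and 1. Its receptor Ccr2 was at 376 CPM (13.8 and 10.5), the lysozyme Lyz2 at 3789 CPM (413 and 687) and the lipid carrier Apoe at 2770.0 CPM (285 and 462). Retnla, an alternative activation gene, stood at 2799 CPM, against 63.4 and 251 CPM. These cells met the rule through Saa3, at 13472 CPM. In Ccr2 and Lyz2 they were nearer to the mirror-rule cells (391 and 2652 CPM) than to clusters 0 and 1, and in Ccl2 they lay between (2918 CPM in mirror-rule cells).

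Cluster 3 was led by Ccl17, a chemokine of antigen-presenting cells, and MHC class II, and stays unnamed. The invariant chain Cd74 was at 19453 CPM there, against 212 to 1048 CPM in clusters 0 to 2, and Ccl17 at 6065 CPM. The dendritic cell markers summed to 119 CPM, with Xcr1 at 0, against 2.52, 0.778 and 9.53 CPM in clusters 0 to 2. Saa3, at 1574 CPM, was lower than in the other 4 clusters, and 2 of the 83 cells were 3-gene cells. Cluster 4, 11 cells with a median of 677 UMIs, was neutrophil-like, with S100a8 at 123609 CPM and Retnlg at 49573 CPM.

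**Figure D2:**
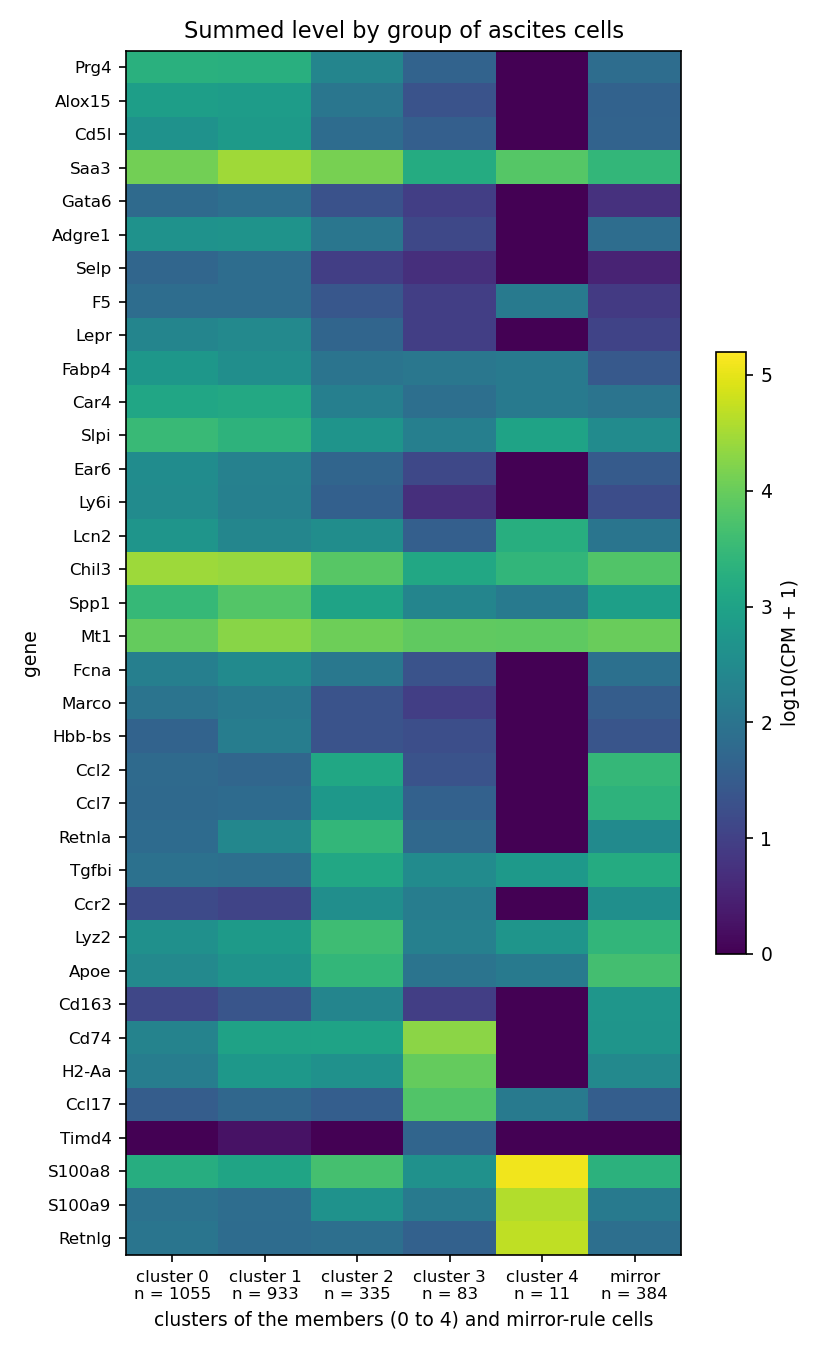
Rows are genes, columns the 5 clusters of members and the mirror-rule cells, and colour gives log10(CPM + 1) of the summed counts. Prg4, Alox15, Cd5l, Gata6 and Adgre1 are high in clusters 0 and 1, and Timd4 reaches 49.2 CPM in cluster 3 against 0.778 CPM or less in the other columns.

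S100a8, a calcium-binding protein best known in neutrophils, stood in different ratios to other neutrophil genes across the groups. It had a UMI in 79% of members and 83.4% of 3-gene cells. The ascites cluster led by neutrophil genes held 3.11 UMIs of S100a8 per UMI of its partner S100a9 (95% interval 2.82 to 3.44). All members held 10.7 (10 to 11.4), the 3-gene cells 17.8 (15.9 to 19.8) and the mirror-rule cells 17.4 (14.4 to 21.2). Members with Saa3 alone held 7.07 (6.46 to 7.74) and cluster 2 10.4 (9.35 to 11.6). Retnlg stood at 1.06 UMIs per S100a9 UMI in the neutrophil-gene cluster, 1.02 in the 3-gene cells, 0.792 in all members, 0.614 in mirror-rule cells and 0.174 in cluster 2. The part of free RNA in these levels was not tested. In the MHC class II cluster 3 the ratio of S100a8 to S100a9 was 3.03 (2.04 to 4.61). There 30.1% of cells had an S100a8 UMI, at a median depth of 2929 UMIs.

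The members were next set beside the 384 mirror-rule cells, which came from the same library at a similar depth. The split was made on 8 genes, which were left out with Krt8, so what follows describes how other genes fell along it. A gene counts as past 2-fold on the ratio of CPM + 5. Of 7124 genes with at least 50 UMIs, 463 (6.5%) were past it higher in the members and 245 (3.44%) lower. The median gene was at a log2 ratio of -0.03, and 46.9% of the genes were above 0.

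By the ratio of CPM + 5, Lepr, Fgfr1, Fabp4 and Car4 ranked highest on the members' side. Folds given with an interval are of CPM with nothing added, and they order the genes differently. The leptin receptor gene Lepr was at 218 CPM in members and 10.2 CPM in mirror-rule cells, 21.4-fold (11.2 to 47), in brackets the exact conditional 95% interval. Fabp4, a fatty acid binding protein, was at 399 and 27.2 CPM, 14.7-fold (9.84 to 23). The membrane carbonic anhydrase gene Car4 was at 1096 and 98.5 CPM and the growth factor receptor gene Fgfr1 at 511 and 32.8 CPM. Ucp1, the mitochondrial uncoupling protein of brown fat, was at 76.6 CPM, against 3 UMIs in mirror-rule cells, 22.6-fold (7.67 to 109.7). Ly6i, Serpinb2, Ablim1, Hes1, Adarb1, Me1 and Aspa completed the 12 highest. The list of lipid handling genes was balanced, with 11 of 23 genes above 0, 5 past 2-fold higher, 5 lower and a median of -0.08. The genes given with values were higher still in the 3-gene cells, Lepr at 258 CPM, Fabp4 at 463 CPM, Car4 at 1328 CPM, Fgfr1 at 608 CPM and Ucp1 at 93.8 CPM.

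Genes lower in the members were led by chemokines, with receptor genes among the 12 lowest. Ccl7 was at 133 CPM in members and 2317 CPM in mirror-rule cells, and Ccl2 at 217 and 2918 CPM, log2 ratios of -4.07 and -3.72. The neutrophil-attracting chemokine Cxcl2 was at 112 and 948 CPM and Cxcl3 at 63.4 and 1005 CPM. The haemoglobin scavenger receptor gene Cd163 was at 46.8 and 537 CPM, and Apoe at 698 and 4489 CPM. Ms4a6b, Fcgr1, Aif1, Ms4a6c, Lgals1 and Stab1 completed the 12 lowest. In the 3-gene cells Ccl7 was at 55.4 CPM, Ccl2 at 55.2 CPM and Cd163 at 14 CPM, so much of what the members had of them lay outside the 3-gene cells.

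**Figure D3:**
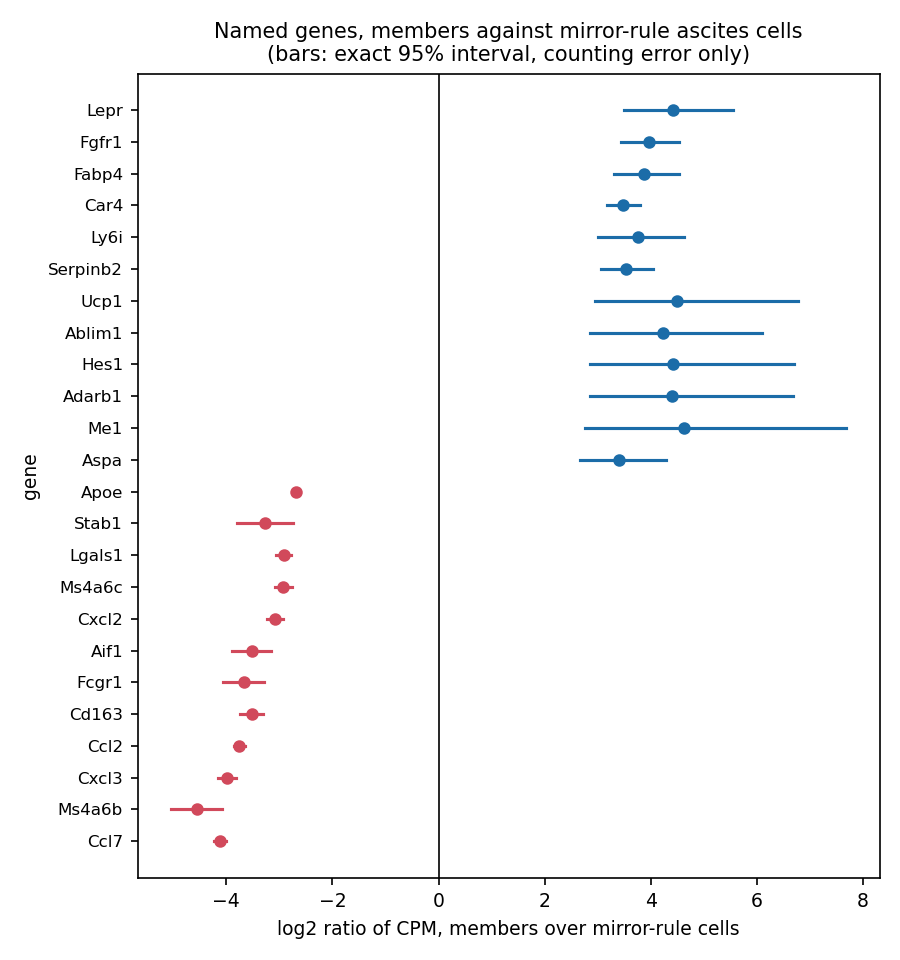
Points give the log2 ratio of CPM, members over mirror-rule cells, for the 12 highest and 12 lowest genes by the ratio of CPM + 5, and bars the exact 95% interval for counting error. The intervals lie on 1 side of 0, and the genes were ranked by this ratio.

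By gene list, the resident program lay with the members and the small-macrophage program with the mirror-rule cells. Of 49 genes of the large peritoneal macrophage program, 40 had the counts to be compared. Of these, 32 were above 0, 23 past 2-fold higher and 0 past it lower, with a median log2 ratio of 1.26. The complement gene C4b was at 560.4 CPM in members and 68 CPM in mirror-rule cells, the prostacyclin synthase Ptgis at 99.9 and 10.2 CPM, and the laminin-binding integrin Itga6 at 147 and 26.1 CPM. Fibronectin (Fn1) ran against its list, at 1691 and 2370.0 CPM. Of 31 genes of the small or marrow-derived program, 21 were compared, 18 were below 0 and 17 past 2-fold lower, with a median of -1.85. The mannose receptor gene Mrc1 was at 302 and 1135 CPM. Retnla was an exception, at 523 and 313 CPM, but stood at 155 CPM in the 3-gene cells.

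Lists of function divided as well, and their counts are to be read beside the 46.9% of all genes above 0. For eicosanoid synthesis 11 of 12 genes were above 0 (median 0.55, 5 past 2-fold). Ltc4s, which makes leukotriene C4, was at 836 and 211 CPM, and the cyclooxygenase gene Ptgs1 at 201 and 52.1 CPM. The leukotriene receptor gene Cysltr1 was the exception, at 40.2 and 137 CPM. For integrins and adhesion 17 of 21 were above 0 (median 0.67), with the tetraspanin Cd9 at 1006 and 173 CPM. For coagulation and plasminogen genes 10 of 15 were above 0 (median 0.45), and Serpinb2, which inhibits urokinase-type plasminogen activator, was at 472 and 40.8 CPM.

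Chemokine and inflammatory genes lay mostly with the mirror-rule cells. Of the chemokines and their receptors 14 of 18 were below 0 (median -1.46), and of the inflammatory mediators 10 of 12 (median -1.19), with Il1b, the cytokine interleukin 1 beta, at 42 and 105 CPM. The complement list had 4 genes past 2-fold higher and 4 lower: C3 was at 56.9 and 10.2 CPM and the C1q chain gene C1qa at 335 and 678 CPM. The heme oxygenase gene Hmox1 was at 594 and 2405 CPM. Of the respiratory chain genes 37 of 49 were above 0, with 0 past 2-fold and a median of 0.12.

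The direction of MHC class II changed when Saa3 was left out of the rule and its mirror. With the full rule 8 of 10 genes were above 0, at a median of 1.34, and Cd74 was at 1426 CPM in members and 507 CPM in mirror-rule cells. With Saa3 left out of both, 1598 members stood against 720 mirror-rule cells rather than 384, and the median was -0.64. The part of each changed group in this was not tested. Cluster 3 held Cd74 at 19453 CPM, and the 3-gene cells at 610.5 CPM. For MHC class I 9 of 10 were above 0 (median 0.82), with its light chain B2m at 3463 and 1806 CPM.

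**Figure D4:**
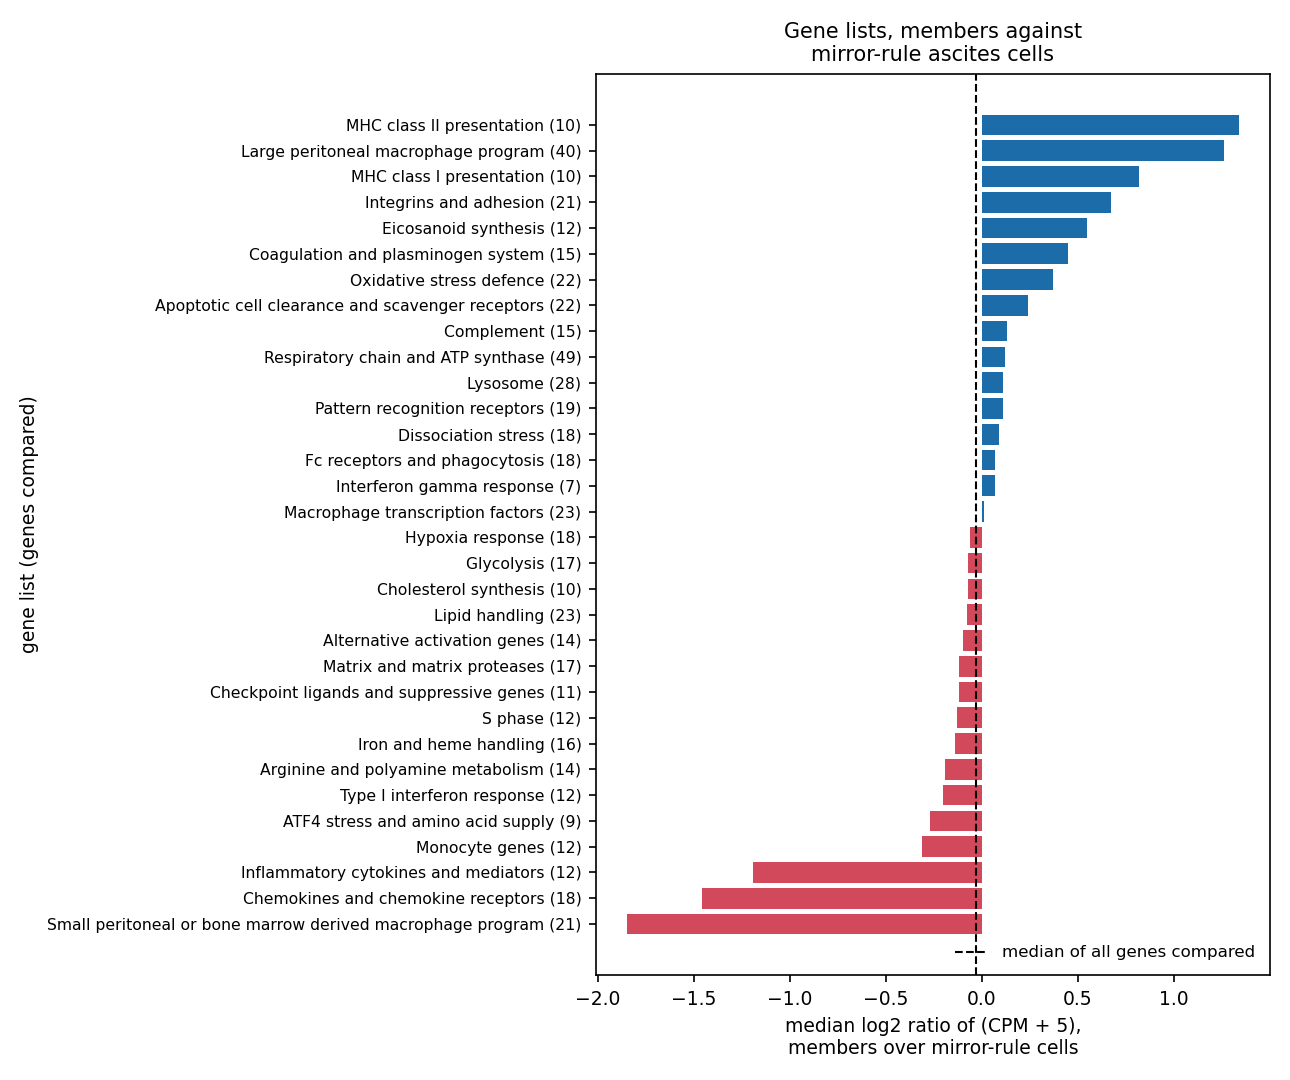
Bars give the median log2 ratio of CPM + 5, members over mirror-rule cells, for each list with at least 7 genes compared (number in brackets), and the dashed line marks the median of all genes, -0.03. The large peritoneal program sits at 1.26 and the small peritoneal program at -1.85. The MHC class II bar at 1.34 would be at -0.64 without Saa3 in the rule and its mirror.

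The same rule was applied to the tumor libraries, with a further condition of at least 2 UMIs over the macrophage genes Csf1r, Adgre1, C1qa, Cd68 and Lyz2. It chose 73, 214 and 124 cells in KPCA.A, KPCA.B and KPCA.C. Of 10258 genes, 342 (3.33%) were past 2-fold higher in the ascites members than in all 3 tumor groups and 1618 (15.8%) lower, so 17.4% of these genes were higher. With median-of-ratios scaling the counts were 950 and 649 and that share 59.4%. The median gene stood at -0.55, -0.56 and -0.53 against KPCA.A, KPCA.B and KPCA.C, and other ratios are to be read relative to it. The 5 fibroblast markers summed to 3148, 933 and 5967 CPM in these tumor cells, against 17.5 CPM in the ascites members, and 8 of the 73 KPCA.A cells had a Prg4 UMI. Among the 12 highest ratios, Ptp4a1, a phosphatase, was at 553 CPM in the ascites against 1.87, 1 and 1.66 CPM in KPCA.A, KPCA.B and KPCA.C, and Wfdc21 at 6479 CPM against 71.1, 226 and 148 CPM. Hbb-bs, of red cells, and S100a8 and Retnlg, of neutrophils, were among them too, with Ear6, Wfdc17, Mt1, Ttc39c, Cirbp, Rflnb and Mgst2. In mirror-rule cells of the ascites Wfdc17 was at 29056 CPM, Wfdc21 at 2797 CPM, Mt1 at 10294 CPM and S100a8 at 2241 CPM. Of the 12 lowest ratios several were matrix genes (Sparc, Col1a1, Col1a2, Col3a1, Col6a5, Dcn and the collagen chaperone Serpinh1), Col3a1 being at 7.78 CPM against 1981, 414 and 4713 CPM, and the part of fibroblast RNA in other genes was not tested. Atp6v0c, a proton pump subunit, was at 2.15 CPM against 662, 739.6 and 647 CPM. Nme2, Lars2, Enpp2 and Rnasek completed the 12. The part of the differing annotations in Ptp4a1, Atp6v0c and the other genes named in both directions was not tested. The large peritoneal program had medians of 0.59, -0.75 and -0.11 against the 3 tumors and the small program -1.40, -1.88 and -1.0.

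Choosing on Prg4, Alox15 and Cd5l gave fewer fibroblast messages. With the macrophage condition kept for the tumors, it left 9, 143 and 48 cells, and KPCA.A was not used further. The 48 cells of KPCA.C are under the 50 set as a minimum and were used after the values were seen. Fibroblast markers summed to 102 CPM in KPCA.B, 288 CPM in KPCA.C and 3.33 CPM in the ascites 3-gene cells. Of 8488 genes, 7.22% were past 2-fold higher in the ascites than in KPCA.B and 30.8% lower, and against KPCA.C 6.06% and 21.2%. The median gene was at -0.56 and -0.42, and median depths were 2544 UMIs in the ascites against 15786.0 and 24350.0.

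Gata6 and Adgre1 were present in all 3 groups, whereas Timd4, Lyve1 and division genes were nearly absent from the ascites. Gata6 was at 71.8 CPM in the ascites, 119 CPM in the KPCA.B tumor and 112 CPM in the KPCA.C tumor, and Adgre1 at 469, 843 and 1016 CPM. Adgre1 is 1 of the 5 genes of the macrophage condition, so its level in the tumor groups was partly fixed by the choice of cells. That condition was not set for the ascites, where 1239 of the 1598 3-gene cells met it. Timd4 gave 1 UMI in the ascites, 127 in KPCA.B and 20 in KPCA.C, or 0.222, 47.1 and 17.4 CPM. The hyaluronan receptor gene Lyve1 gave 3, 817 and 55 UMIs. These UMIs come from 4511223 in the ascites group, 2698449 in KPCA.B and 1151154 in KPCA.C, so the group with the most UMIs held the fewest of both genes. Vsig4 was at 7.54, 121 and 145 CPM, 16-fold (11.2 to 23.6) and 19.2-fold (13.2 to 28.7) higher in the tumors. Icam2 was at 25.7, 169 and 113 CPM. Retnla was at 155, 15672 and 1274 CPM, and so differed between the tumors as well. The proliferation gene Mki67 was at 1.33, 246 and 74.7 CPM. All 32 mitosis genes compared were lower in the ascites than in KPCA.B, and all 32 than in KPCA.C (medians -2.81 and -1.76). Most genes were lower in the ascites, with 27.7% of all genes above 0 against KPCA.B and 29.9% against KPCA.C. With the full rule, which chose these 3-gene cells and more, the mitosis median against KPCA.C reversed, to 0.44, when cells were thinned to 1000 UMIs. Thinning left 3843 genes tested in the tumor comparison, against 10258 without it. How many mitosis genes were among them is not given here, so that median cannot be set beside the 32 genes of the 3-gene cells.

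WAP-domain proteins, metallothionein and Spp1 lay on the ascites side. Wfdc17 was at 38399 CPM in the ascites, 1606 CPM in the KPCA.B tumor and 949 CPM in the KPCA.C tumor, 23.9-fold (23.2 to 24.6) and 40.5-fold (38.1 to 43). Mt1 was at 13832, 508 and 620.2 CPM, and Slpi at 2877, 259 and 431 CPM. Spp1 was at 4935, 274 and 1225 CPM. All 4 were higher in the ascites than in either tumor, and so was S100a8, at 1404, 14.8 and 13.9 CPM. Wfdc17, Mt1 and S100a8 were also high in mirror-rule cells of the same library, at 29056, 10294 and 2241 CPM. Their levels were thus not particular to the 3-gene cells within the ascites, and the part of free RNA was not tested. Slpi and Spp1 were lower in mirror-rule cells, at 315 and 865 CPM. Ear6 gave 1220 UMIs in the ascites and 0 in either tumor group, and the part of the differing annotations was not tested. Lepr was at 258, 2.22 and 86 CPM and Car4 at 1328, 2.22 and 419 CPM, so that KPCA.C lay between the other groups. Chil3 and Arg1 were abundant in all 3, Chil3 at 25745, 32820.0 and 63894 CPM and Arg1 at 4988, 7092 and 9411 CPM.

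By list, 14 of 15 interferon gamma response genes were lower in the ascites than in KPCA.B (median -1.60) and 15 of 15 lower than in KPCA.C (median -2.08). Of all 8488 genes, 27.7% were above 0 against KPCA.B and 29.9% against KPCA.C, so most genes were lower in the ascites. Gbp2, an interferon-induced GTPase, was 11.8-fold (8.73 to 16.4) and 31.3-fold (23.1 to 43.1) higher in the tumors. MHC class II genes were lower in the ascites in 10 of 11 and 9 of 11 (medians -2.08 and -2.11). For KPCA.C that share was near that of all genes. Past 2-fold lower were 8 of 11 against KPCA.B and 8 of 11 against KPCA.C, beside 30.8% and 21.2% of all genes. Cd74 was at 610.5, 5428 and 4340.0 CPM. Respiratory chain genes lay the other way, 39 of 49 above 0 against KPCA.B and 38 against KPCA.C (medians 0.64 and 0.50). The large peritoneal program had medians of -0.69 and -0.61, against -0.56 and -0.42 for all genes, and the small program -2.32 and -1.33.

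**Figure D5:**
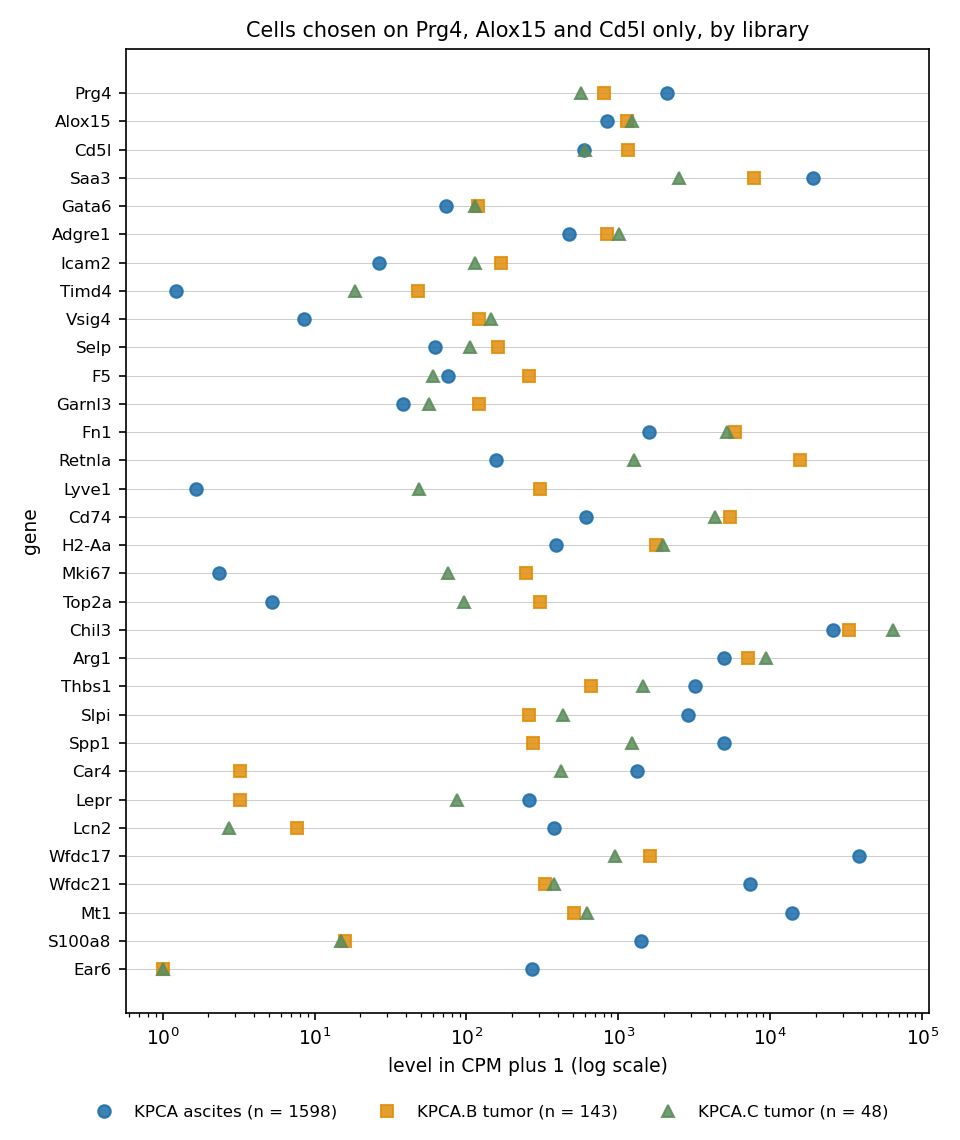
Each row is a gene, and the horizontal axis its summed level in CPM plus 1 on a log scale in cells chosen on Prg4, Alox15 and Cd5l: circles for the ascites (n = 1598 cells), squares for KPCA.B (n = 143) and triangles for KPCA.C tumors (n = 48). Timd4, Lyve1, Vsig4 and Mki67 lie to the left in the ascites, and Wfdc17, Mt1, S100a8 and Ear6 to the right.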

How the data were processed

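Single-cell RNA of 1 ascites and 3 omental tumor libraries was analysed from UMI count matrices deposited by the authors as raw counts per gene and barcode. Per the submitters' processing notes they were made with Cell Ranger 3.1.0 on mm10, whereas the file headers name 3.0.2 (ascites) and 4.0.0 (tumors). Cells were filtered and chosen as described above, and no doublets were removed. Counts were summed per group and scaled to CPM over 30406 shared genes. Ratios used CPM + 5 and genes with at least 50 UMIs, and intervals were exact. Members were clustered with scanpy 1.11.5 and leidenalg 0.10.2 (2000 variable genes, 20 components, 15 neighbours, resolution 0.5). The scripts were tested on simulated data.

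The text names the 12 genes per direction with the largest ratio and at least 50 CPM in the higher group, genes of 33 lists that were past 2-fold or among the 5 highest of their list, and markers of 14 cell types. Leading genes of clusters and the most abundant genes were chosen after their values were seen. The members and lists were chosen with earlier results of these data known. With 1 library per group no test was run. Alternatives covered cell filters, the rule, scaling, the value added, the gene minimum and depth. Some items are not reported here.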

Additional observations from a re-analysis of the deposited data

How the results depend on the processing

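The share of members was 80.6% with at least 3 UMIs of the 4 genes, 78.1% with at least 4, 54.7% without Saa3 and 79.1% after thinning to 1000 UMIs per cell. Against mirror-rule cells the 463 genes higher came to 306 without Saa3, 207 with 20 CPM added and 280 with a gene minimum of 200 UMIs, and the 245 lower to 134 with 20 CPM added and 118 with the minimum of 200. Leaving out Saa3 also changed the mirror-rule group, from 384 to 720 cells. Against the tumors the 342 genes higher came to 607 without Saa3, 950 with median-of-ratios scaling and 226 with 20 CPM added. The 1618 lower came to 2468 without Saa3, 649 with median-of-ratios scaling, 2684 with 1 CPM added, 517 with 20 CPM added and 430 after thinning, which leaves fewer genes tested. The MHC class II median reversed to -0.64 against mirror-rule cells without Saa3 and to 0.31 against KPCA.A without the macrophage condition, and the mitosis median to 0.44 against KPCA.C after thinning. Without Saa3 the tumor counts rest on KPCA.B alone, and with KPCA.C included (chosen after seeing the data) they were 396 and 1493; after thinning KPCA.A, with 36 cells, was left out. Apart from fewer genes or cells, the cause was not tested. Members of the 2 ascites clusters rich in Prg4, a choice made after seeing the data, gave 498 higher and 320 lower than mirror-rule cells. Members with no UMI of the opposing 4 genes were not run as an alternative, because the mirror of that rule left too few cells. No paired analysis was possible because each group is 1 library with no replicate numbers. Depth per cell limits the shares of cells with a UMI, and the counting intervals limit genes of few UMIs.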
